A study of Homo sapiens with 6 samples.

Results

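The heat shock proteins, the DNAJ cochaperones and the cytosolic chaperonin were followed in SW480 cells after an siRNA against ITGB4. They were taken by name from the protein-coding rows of the deposited gene table: symbols beginning HSPA, HSPB, HSPD, HSPE or HSPH with a number, HSP90A, DNAJA, DNAJB or DNAJC with a number, CCT2 to CCT8, and TCP1, without HSPA5, DNAJB9 and DNAJB11. This gave 82 rows with 81 symbols, of 19951 protein-coding and 58735 genes in all. By family there were 2 HSP90, 1 HSP110, 14 HSP70, 9 small heat shock, 3 HSP60 and HSP10, 4 DNAJA, 10 DNAJB, 29 DNAJC and 10 chaperonin genes.

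SW480 is an established human line of colorectal cancer cells, labelled wild type. RNA was sequenced in 3 libraries of cells transfected with an siRNA against ITGB4, the integrin β4 subunit of hemidesmosomes, and in 3 libraries of cells transfected with a negative control siRNA. The submitters call the 3 libraries of a group biological replicates. A single siRNA against ITGB4 is named, so an effect of this siRNA on other transcripts cannot be told apart from an effect of less ITGB4, and the time after transfection is not given in the sources used here.

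Heat shock proteins are molecular chaperones that hold, fold or refold other proteins. HSP70 proteins bind short hydrophobic stretches in a cycle driven by ATP. The J domain of the DNAJ proteins starts that cycle by stimulating ATP hydrolysis, and exchange factors such as HSPH1 and the BAG proteins end it by releasing ADP. HSP90 acts later, on kinases, steroid receptors and other clients that are already partly folded. The chaperonin, a pair of stacked rings of TCP1 and CCT subunits, encloses actin and tubulin while they fold, and HSP60 with its lid HSP10 does the same for proteins imported into mitochondria. Part of these genes is switched on by heat and other proteotoxic stress through HSF1, which binds inverted repeats of the letters GAA in their promoters.

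The libraries held 13715266 to 15496274 reads assigned to genes. ITGB4 was 41.1, 38.1 and 37.9 FPKM (a fragment count scaled by gene length and library size) with its siRNA and 74.3, 63.8 and 69.8 FPKM with the control siRNA, without overlap. It fell by 43.7%, with a log2 fold change of -0.81 (SE 0.0658, limma adjusted p = 0.0148). The log2 fold change stayed between -0.87 and -0.76 when any 1 library was left out, but the limma adjusted p was above 0.05 without ITGB4 siRNA replicate 1, 2 or 3 (0.0699, 0.137 and 0.0977), without control replicate 3 (0.1004) and with no filter on low values (0.0618). Of 10 markers of colon epithelium, EPCAM, KRT8, KRT18, CDX2 and CDH1 averaged at least 1 FPKM, while KRT20, CDX1, VIL1, CDH17 and LGALS4 were under 1. The summed level of the 10 was 1173 to 1197 FPKM with ITGB4 siRNA and 1125 to 1237 FPKM with control siRNA. Of 7 fibroblast, 5 endothelial and 6 leukocyte markers, 0 averaged 1 FPKM in either group. In such bulk libraries, fewer cells with a transcript and less of it per cell cannot be told apart.

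The summed level of the chaperones differed by less than the spread between replicates. They summed to 4109.9 ± 55.7 FPKM with ITGB4 siRNA and 4094 ± 117 FPKM with control siRNA (SD, n = 3 each), or 1.51% of all FPKM with ITGB4 siRNA and 1.5% with control siRNA. HSP90AB1, HSP90AA1, HSPA8 and HSPD1 alone held 55.3% of this sum. Of the 82 rows, 9 averaged at least 100 FPKM, 28 were between 10 and 100, and 23 between 1 and 10. The other 22 were under 1 FPKM, the level required for testing, and 7 of them had 0 reads in each library, which allows up to 3 reads a library. Nearest to that level were DNAJC17 with 1.013 FPKM, which was tested, and DNAJB5 with 0.835 FPKM, which was not.

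Of the 60 tested chaperone genes, 0 differed between ITGB4 siRNA and control siRNA at a limma adjusted p under 0.05. The same test called 6 of 12871 genes, or 0.0466%, a rate at which most sets of 60 genes would hold none. That count was 0 without ITGB4 siRNA replicate 1, 2 or 3 and 3 without control replicate 3. Limma-voom on reads recovered from the FPKM called 0 of the 60 as well, beside 26 of all genes, or 0.202%. Fold changes lay between -0.16 and 0.28 on the log2 scale, 33 above 0 and 27 below, with a median of 0.0036. Of all tested genes, 6242 were above 0 and 6629 below, with a median of -0.0034. The smallest adjusted p among them was 0.820 by limma and 0.557 by limma-voom, both for DNAJC17.

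The intervals say how large a difference the 6 libraries still allow. The 95% interval of the fold change lay within 1.5-fold either way for 60 of 60 genes, within 1.25-fold for 52 and within 1.1-fold for 11. The 8 whose interval passed 1.25-fold were HSPB1, DNAJC9, DNAJC25, DNAJC17, DNAJC16, DNAJC18, DNAJC24 and DNAJC30. These intervals are on the log2(FPKM + 1) scale, which understates changes of genes near 1 FPKM. Among the 47 genes with a mean of at least 5 FPKM, where this matters less, 45 were within 1.25-fold, all but HSPB1 and DNAJC9.

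**Figure D1:**
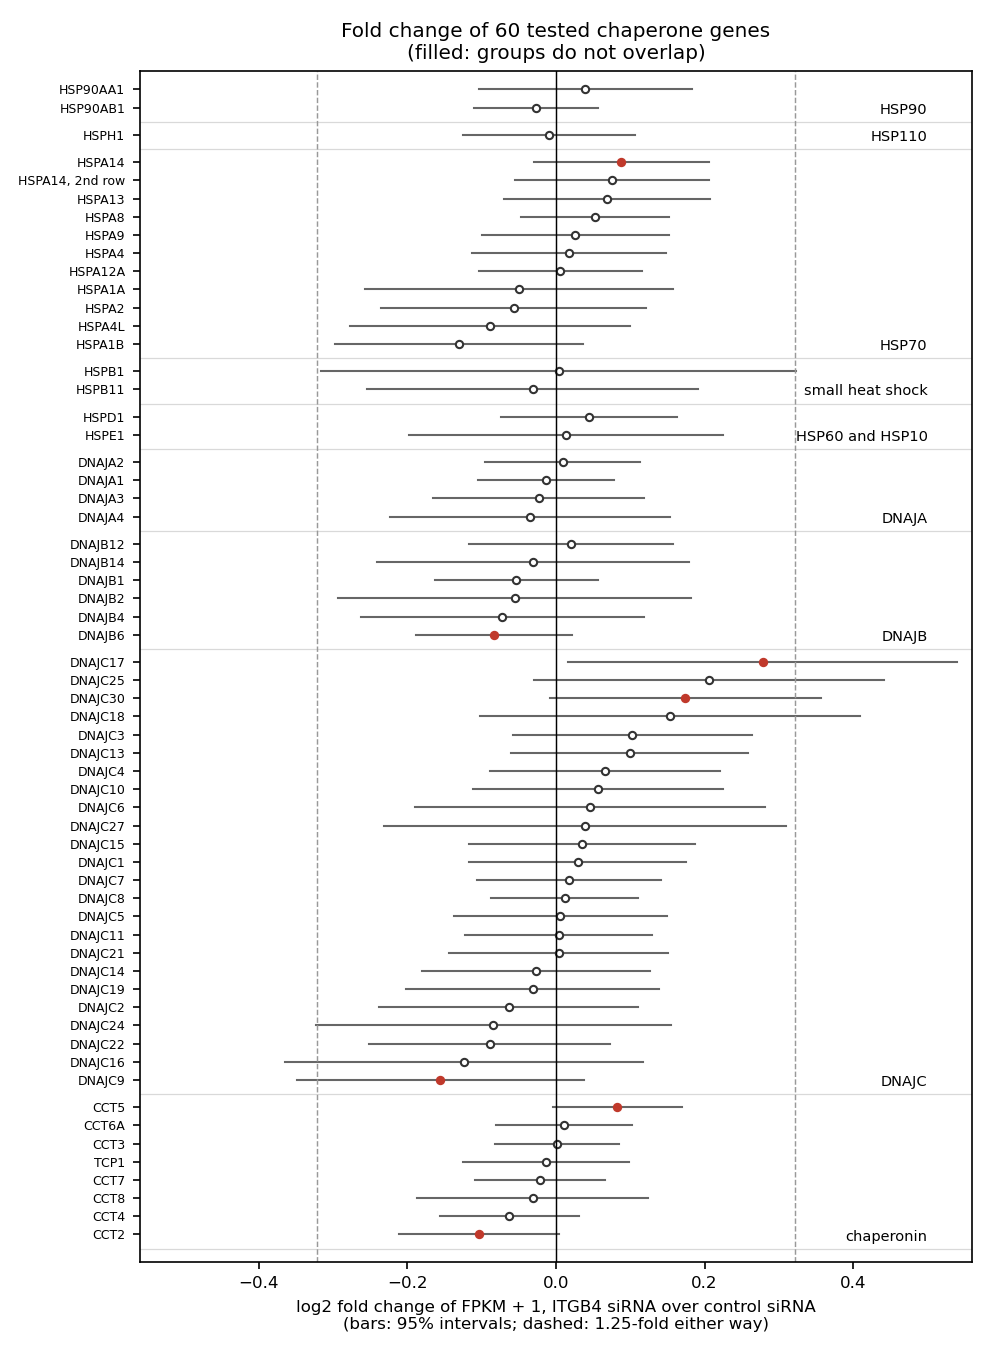
Log2 fold change of FPKM + 1, ITGB4 siRNA over control siRNA, for the 60 tested chaperone genes by family (points) with 95% intervals (bars, limma, n = 3 libraries each). Filled points mark the 7 genes whose groups do not overlap, and dashed lines mark 1.25-fold either way. The points lie between -0.16 and 0.28, and 52 of the 60 intervals stay between the dashed lines.

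In 7 of the 60 genes, or 11.7%, the 3 ITGB4 siRNA libraries did not overlap the 3 control libraries, against 11.1% of all tested genes. HSPA14, DNAJC17, DNAJC30 and CCT5 were higher with ITGB4 siRNA in 3 of 3 libraries (6.67%, against 5.75% of all genes), and CCT2, DNAJB6 and DNAJC9 were lower (5.0%, against 5.36%). Only DNAJC17, 1.67% of the 60, had an unadjusted limma p under 0.05, a mark that 5.83% of all genes passed. That count was 0 of 59 without ITGB4 siRNA replicate 3, where DNAJC17 was not tested and 581 of 12860 genes passed. It was 0 of 60 without control replicate 3, where 526 of 12894 genes passed. It was 2 of 60 (CCT2 and CCT4) without control replicate 1, where 1314 of 12891 genes passed. It was 3 of 60 (CCT5, DNAJC13 and HSPA1B) without control replicate 2, where 853 of 12867 genes passed. Without ITGB4 siRNA replicate 1 the 1 gene of 59 was DNAJC25, beside 607 of 12868 genes. The shares without overlap are near those of all genes, and 0 of the 7 passed the adjusted threshold. DNAJC17, 1 of the 7, passed the filter at 1 FPKM through its ITGB4 siRNA libraries. It was not tested without ITGB4 siRNA replicate 1 or 3.

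The cytosolic HSP90 genes had the highest FPKM of the set. HSP90AB1, the constitutive form (GRCh38 chromosome 6, 44246166 to 44253888, plus strand), was 728, 743 and 732 FPKM with ITGB4 siRNA and 732, 769 and 744 FPKM with control siRNA. HSP90AA1, the heat-inducible form (chromosome 14, 102080738 to 102139699, minus strand), was 709, 748 and 736 FPKM with ITGB4 siRNA and 655, 763 and 719.8 FPKM with control siRNA. In both genes the groups overlapped, and control replicate 2 was the highest of the 6 libraries. The log2 fold changes were -0.03 for HSP90AB1 (SE 0.0353) and 0.04 for HSP90AA1 (SE 0.0606), with a limma adjusted p of 0.998 for each. In FPKM, the inducible form was 0.995 ± 0.0194 times the constitutive one with ITGB4 siRNA and 0.951 ± 0.0513 times with control siRNA (SD, n = 3 each), and the groups overlapped. Levels compared between genes depend on the deposited gene length, here 5248 bases for HSP90AA1 and 2980 for HSP90AB1. Their longest transcripts held 3461 and 2625 words of 50 bases, and their reads over the 6 libraries were 339396 and 197906. Every comparison of levels between genes in this report carries this limit. HSPH1, the HSP110 protein that acts as an exchange factor for HSP70, was 62.4, 65.2 and 64.3 FPKM with ITGB4 siRNA and 61.6, 68.0 and 63.6 FPKM with control siRNA. Its interval, -0.12 to 0.11 on the log2 scale, was within 1.1-fold.

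The HSP70 family was led by HSPA8, the constitutive cytosolic HSC70, with 477, 489 and 469 FPKM in ITGB4 siRNA libraries and 445, 480.1 and 459.6 FPKM in control libraries. The groups overlapped, and the log2 fold change was 0.05 (SE 0.0420, limma adjusted p = 0.998). HSPA4, an HSP110-like exchange factor, averaged 84.1 ± 2.61 FPKM with ITGB4 siRNA and 83.2 ± 5.10 FPKM with control siRNA (SD, n = 3 each). HSPA9, mortalin, the HSP70 of the mitochondrial matrix and of its import motor, averaged 54.7 ± 0.741 FPKM with ITGB4 siRNA and 53.8 ± 3.33 FPKM with control siRNA (SD, n = 3 each). Both overlapped between the groups. HSPA13, an HSP70 of the endoplasmic reticulum, averaged 16.0 ± 0.533 FPKM with ITGB4 siRNA and 15.2 ± 0.945 FPKM with control siRNA. HSPA12A, a distant relative, averaged 9.74 ± 0.240 FPKM with ITGB4 siRNA and 9.69 ± 0.167 FPKM with control siRNA (SD, n = 3 each). Of the 11 tested HSP70 genes it was the 1 whose interval, -0.10 to 0.12, stayed within 1.1-fold. HSPA4L and HSPA2, abundant in testis, averaged 4.85 ± 0.0960 and 2.79 ± 0.122 FPKM with ITGB4 siRNA and 5.24 ± 0.619 and 2.95 ± 0.256 FPKM with control siRNA (SD, n = 3 each), with overlap. HSPA1L and HSPA12B were under 1 FPKM in both groups.

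HSPA14, which works with DNAJC2 at the ribosome, has 2 rows under the same symbol. The row on chromosome 10 with the higher level (ENSG00000187522) was 14.3, 15.1 and 14.3 FPKM with ITGB4 siRNA and 13.2, 13.6 and 14.2 FPKM with control siRNA. Every ITGB4 siRNA library was above every control library, by a margin smaller than the range within either group. Its log2 fold change was 0.09 (SE 0.0495, limma adjusted p = 0.951), and the means gave p = 0.1 in a two-sided exact permutation test, the lowest p that 3 against 3 libraries can reach. The other row (ENSG00000284024) was 5.19, 5.58 and 5.62 FPKM with ITGB4 siRNA and 5.20, 5.18 and 5.01 FPKM with control siRNA, and there the groups overlapped. The longest transcript of the first row shares 22.2% of its 50-base words with the second, so the split of reads between these rows is uncertain. Summed over both rows the level was 20.0 ± 0.564 FPKM with ITGB4 siRNA and 18.8 ± 0.408 FPKM with control siRNA (SD, n = 3 each). The groups did not overlap in this sum (exact two-sided permutation p = 0.1).

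HSPA1A and HSPA1B, neighbouring genes on chromosome 6 for the classic stress-inducible HSP70, stood far below HSPA8. HSPA1A was 12.6, 12.3 and 11.4 FPKM with ITGB4 siRNA and 14.3, 11.4 and 12.0 FPKM with control siRNA. HSPA1B was 10.3, 9.61 and 10.6 FPKM with ITGB4 siRNA and 11.7, 10.2 and 11.9 FPKM with control siRNA. The groups overlapped in both genes. The longest transcripts share 72.6% and 73.5% of their 50-base words with other genes, nearly all with each other, so only their sum is well defined. It was 22.3 ± 0.60 FPKM with ITGB4 siRNA and 23.8 ± 2.20 FPKM with control siRNA (SD, n = 3 each; exact two-sided permutation p = 0.4), and the groups overlapped. HSPA8 was 21.5 ± 0.812 times this sum with ITGB4 siRNA and 19.5 ± 2.57 times with control siRNA. HSPA6, an HSP70 with almost no expression outside strong stress, had 1, 4 and 0 reads in ITGB4 siRNA libraries and 8, 1 and 0 reads in control libraries.

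The promoters of some of these genes show the letters that heat shock factors bind. A 2-unit heat shock element was searched as GAANNTTC or TTCNNGAA and a 3-unit element as GAANNTTCNNGAA or TTCNNGAANNTTC, within 250 bases before each RefSeq start (GRCh38.p14). The 2-unit words are their own reverse complements and each 3-unit word is the reverse complement of the other, so both strands are covered, and every 3-unit match holds 2-unit matches that overlap. Below are the 160 bases before a start of 5 genes listed as heat-inducible HSF1 targets. They run 5′ to 3′ on the strand of the gene, with 2-unit matches in capitals. They are shown because HSPA1A and HSPA1B carry the same element in almost the same surroundings, while HSPA8 and HSP90AA1 carry overlapping matches nearer the start.
HSPA1A, chr6:31815383-31815542, plus strand: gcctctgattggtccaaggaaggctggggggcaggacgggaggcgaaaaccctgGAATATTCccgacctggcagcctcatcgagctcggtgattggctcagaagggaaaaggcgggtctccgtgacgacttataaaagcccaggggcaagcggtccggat
HSPA1B, chr6:31827578-31827737, plus strand: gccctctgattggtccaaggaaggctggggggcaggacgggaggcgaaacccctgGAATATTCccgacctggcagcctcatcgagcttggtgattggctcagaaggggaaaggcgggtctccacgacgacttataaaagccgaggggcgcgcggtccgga
HSPA8, chr11:123062137-123062296, minus strand: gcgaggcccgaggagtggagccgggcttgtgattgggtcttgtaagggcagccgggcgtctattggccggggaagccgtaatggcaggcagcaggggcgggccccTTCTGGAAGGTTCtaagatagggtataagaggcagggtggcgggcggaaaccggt
HSP90AA1, chr14:102087045-102087204, minus strand: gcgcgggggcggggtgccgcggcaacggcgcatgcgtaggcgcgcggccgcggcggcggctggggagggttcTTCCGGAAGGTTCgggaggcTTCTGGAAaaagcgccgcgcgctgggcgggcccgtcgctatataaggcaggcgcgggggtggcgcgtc
DNAJB1, chr19:14518398-14518557, minus strand: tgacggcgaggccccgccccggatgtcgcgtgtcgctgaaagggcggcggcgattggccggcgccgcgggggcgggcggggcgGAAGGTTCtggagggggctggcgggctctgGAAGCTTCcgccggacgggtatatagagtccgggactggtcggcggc

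Of 71 chaperone genes with a RefSeq promoter in the table, 23 held a 2-unit match, or 32.4%, against 13.96% of 27305 genes. A 3-unit match was found in 6 of the 71, or 8.45%, against 0.557% of genes. Among 15 members listed as heat-inducible HSF1 targets, 13 held a 2-unit match and 6 a 3-unit match. The 6 were HSP90AA1, HSP90AB1, HSPA6, HSPA8, HSPD1 and DNAJB6. Most of the 2-unit and all of the 3-unit matches of the 71 genes thus came from a list defined by HSF1. That list includes HSPA8 and HSP90AB1, which are also the constitutive forms. A match is a stretch of letters and not a bound site. The 14 of these 15 that were tested had 5 fold changes above 0 and 9 below between ITGB4 siRNA and control siRNA, a median of -0.02 on the log2 scale and 0 calls.

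**Figure D2:**
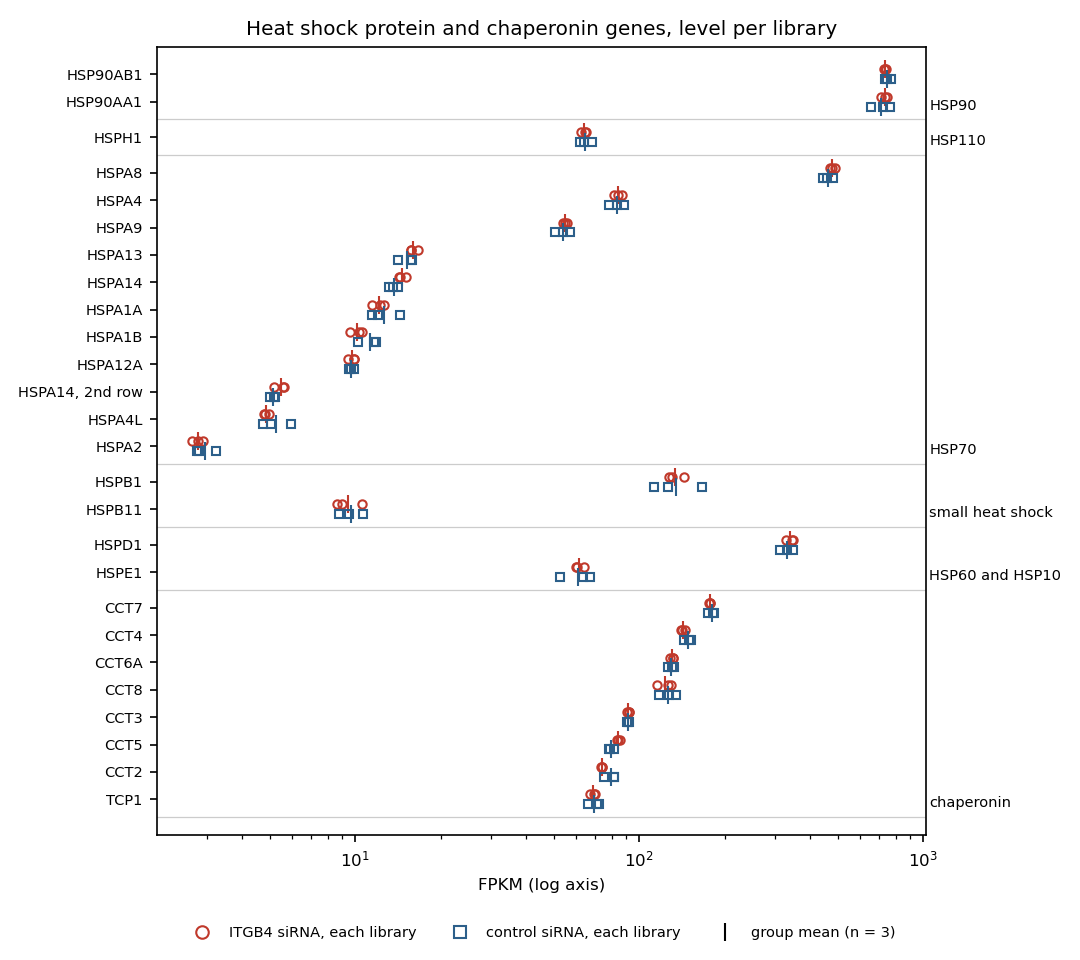
FPKM (log axis) of the tested heat shock protein and chaperonin genes in each library, grouped by family, with 3 ITGB4 siRNA libraries (circles, upper row) and 3 control siRNA libraries (squares, lower row) per gene and group means as vertical lines. Group means run from HSP90AB1 above 700 FPKM to HSPA2 under 3 FPKM, and the circles and squares of most genes lie on each other.

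Of the 9 small heat shock genes, which form oligomers that hold unfolded proteins, 2 were tested. HSPB1, or HSP27, was 143.6, 127.1 and 130.4 FPKM with ITGB4 siRNA and 165.8, 113.0 and 126.1 FPKM with control siRNA. Control replicates 1 and 2 were the highest and the lowest of the 6 libraries, and the ITGB4 siRNA libraries all lay between them. The log2 fold change was 0.0035 (SE 0.135, limma adjusted p = 0.999), with an interval from -0.32 to 0.32, the widest of the 60. HSPB11, which is a subunit of the intraflagellar transport machinery rather than a stress protein, averaged 9.41 ± 1.04 FPKM with ITGB4 siRNA and 9.63 ± 0.935 FPKM with control siRNA (SD, n = 3 each). HSPB6, HSPB7, HSPB8 and HSPB9 were under 1 FPKM in both groups. HSPB2, HSPB3 and the readthrough gene HSPB2-C11orf52 had 0 reads in each library.

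HSPD1, the mitochondrial HSP60, was 329, 347 and 345 FPKM with ITGB4 siRNA and 312, 348 and 330.5 FPKM with control siRNA. HSPE1, its lid HSP10, was 60.4, 63.7 and 59.9 FPKM with ITGB4 siRNA and 52.6, 63.6 and 67.0 FPKM with control siRNA. Groups overlapped for both, and the log2 fold changes were 0.04 (SE 0.0499) for HSPD1 and 0.01 (SE 0.0893) for HSPE1, each with a limma adjusted p of 0.998. These genes lie head to head on chromosome 2 and overlap on opposite strands. The level of HSPD1 was 5.55 ± 0.183 times that of HSPE1 with ITGB4 siRNA and 5.45 ± 0.505 times with control siRNA (SD, n = 3 each), on the FPKM scale. Both have many processed pseudogenes, and rows named as such held 1.64% of the reads of HSPD1 and its pseudogenes together, and 2.33% in the case of HSPE1. The readthrough gene HSPE1-MOB4 was under 1 FPKM.

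The DNAJA proteins, the class built like bacterial DnaJ, are the general J-domain partners of HSP70. DNAJA1 was 73.1, 73.0 and 72.6 FPKM with ITGB4 siRNA and 72.4, 76.0 and 72.4 FPKM with control siRNA. DNAJA2 averaged 17.3 ± 0.305 FPKM with ITGB4 siRNA and 17.2 ± 0.446 FPKM with control siRNA, and the mitochondrial DNAJA3 averaged 14.2 ± 0.438 FPKM with ITGB4 siRNA and 14.5 ± 0.965 FPKM with control siRNA (SD, n = 3 each). DNAJA4 averaged 5.997 ± 0.143 FPKM with ITGB4 siRNA and 6.19 ± 0.694 FPKM with control siRNA (SD, n = 3 each). All 4 overlapped between the groups, with fold changes of -0.04 to 0.01 on the log2 scale and a median of -0.02.

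In the DNAJB class, 5 of 6 tested genes had fold changes below 0, with a median of -0.05 on the log2 scale and 0 calls. DNAJB1, the heat-inducible HSP40 that pairs with HSPA1A and HSPA8, was 63.4, 61.3 and 60.8 FPKM with ITGB4 siRNA and 67.1, 61.7 and 63.9 FPKM with control siRNA. The groups overlapped, and the log2 fold change was -0.05 (SE 0.0461, limma adjusted p = 0.998). DNAJB6, which suppresses aggregation of polyglutamine proteins, was 15.9, 16.4 and 16.0 FPKM with ITGB4 siRNA and 17.2, 17.5 and 16.6 FPKM with control siRNA. Its groups did not overlap. The log2 fold change was -0.08 (SE 0.0443, limma adjusted p = 0.938; exact two-sided permutation p = 0.1). DNAJB2 averaged 10.9 ± 1.06 FPKM with ITGB4 siRNA and 11.4 ± 1.37 FPKM with control siRNA, and DNAJB4 averaged 2.98 ± 0.0893 FPKM with ITGB4 siRNA and 3.20 ± 0.362 FPKM with control siRNA (SD, n = 3 each). Both overlapped between the groups. The endoplasmic reticulum members DNAJB12 and DNAJB14 had fold changes of 0.02 and -0.03. DNAJB5, DNAJB7 and DNAJB13 were under 1 FPKM and DNAJB8 had 0 reads.

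The DNAJC class joins proteins that share only the J domain and act in many places. Of 24 tested, 17 had fold changes above 0 and 7 below, with a median of 0.02 and 0 calls. The most abundant was DNAJC8, found with splicing factors, at 40.3, 41.7 and 41.9 FPKM with ITGB4 siRNA and 40.8, 40.0 and 42.2 FPKM with control siRNA. DNAJC5, the cysteine string protein of secretory vesicles, was 34.5, 36.7 and 35.3 FPKM with ITGB4 siRNA and 38.3, 33.4 and 34.6 FPKM with control siRNA. DNAJC2, the ribosome-bound partner of HSPA14, was 16.2, 18.3 and 17.9 FPKM with ITGB4 siRNA and 16.7, 19.6 and 18.6 FPKM with control siRNA. In each of these 3 genes the groups overlapped, and their fold changes were 0.01, 0.01 and -0.06 on the log2 scale.

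DNAJC17, a nuclear J-domain protein with an RNA recognition motif, had the largest fold change of the tested members. It was 1.23, 1.05 and 1.35 FPKM with ITGB4 siRNA, from 96, 90 and 118 reads, and 0.876, 0.707 and 0.874 FPKM with control siRNA, from 73, 59 and 75 reads. The groups did not overlap. The log2 fold change was 0.28 (SE 0.110, 95% interval 0.02 to 0.54, limma adjusted p = 0.820; exact two-sided permutation p = 0.1), and 0.56 by limma-voom on the reads, which add no pseudocount of 1 FPKM. The gene passed the filter at 1 FPKM through its ITGB4 siRNA libraries, and without ITGB4 siRNA replicate 1 or 3 it was not tested. On the opposite strand it is overlapped by ZFYVE19 and C15orf62, which averaged 5.60 ± 0.417 and 1.19 ± 0.168 FPKM with ITGB4 siRNA and 5.89 ± 0.353 and 1.43 ± 0.386 FPKM with control siRNA (SD, n = 3 each). Whether counting used the strand is not given in the sources used here, so reads of these genes cannot be told apart.

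DNAJC30, a mitochondrial J-domain protein tied to respiratory complex I, was 2.96, 3.35 and 3.20 FPKM with ITGB4 siRNA and 2.86, 2.44 and 2.80 FPKM with control siRNA. The groups did not overlap, with a log2 fold change of 0.17 (SE 0.0769, limma adjusted p = 0.880). It too is overlapped on the opposite strand, by BUD23, which had 12.6 ± 0.569 FPKM with ITGB4 siRNA and 12.8 ± 0.459 FPKM with control siRNA (SD, n = 3 each). DNAJC25 was 2.74, 3.32 and 3.63 FPKM with ITGB4 siRNA and 2.40, 2.74 and 2.82 FPKM with control siRNA, where the groups overlapped (log2 fold change 0.21, SE 0.0990, limma adjusted p = 0.926). DNAJC3, an inhibitor of the kinase PKR that also serves as a cochaperone in the endoplasmic reticulum, was 11.4, 12.6 and 12.9 FPKM with ITGB4 siRNA and 10.7, 12.1 and 11.4 FPKM with control siRNA, again with overlap. DNAJC9, a chaperone of histones, had 10.3, 12.1 and 12.3 FPKM with ITGB4 siRNA and 14.1, 12.4 and 12.6 FPKM with control siRNA. Its groups did not overlap, but the gap between them was under 0.1 FPKM. The log2 fold change was -0.16 (SE 0.0814, limma adjusted p = 0.938), the lowest of the tested members. DNAJC9 is overlapped by FAM149B1 on the opposite strand and by MRPS16 on the same strand. MRPS16 had 39.3 ± 1.42 FPKM with ITGB4 siRNA and 38.2 ± 1.39 FPKM with control siRNA (SD, n = 3 each). The longest transcript of DNAJC9 shares 16.4% of its 50-base words with other genes, so the assignment of its reads is uncertain.

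**Figure D3:**
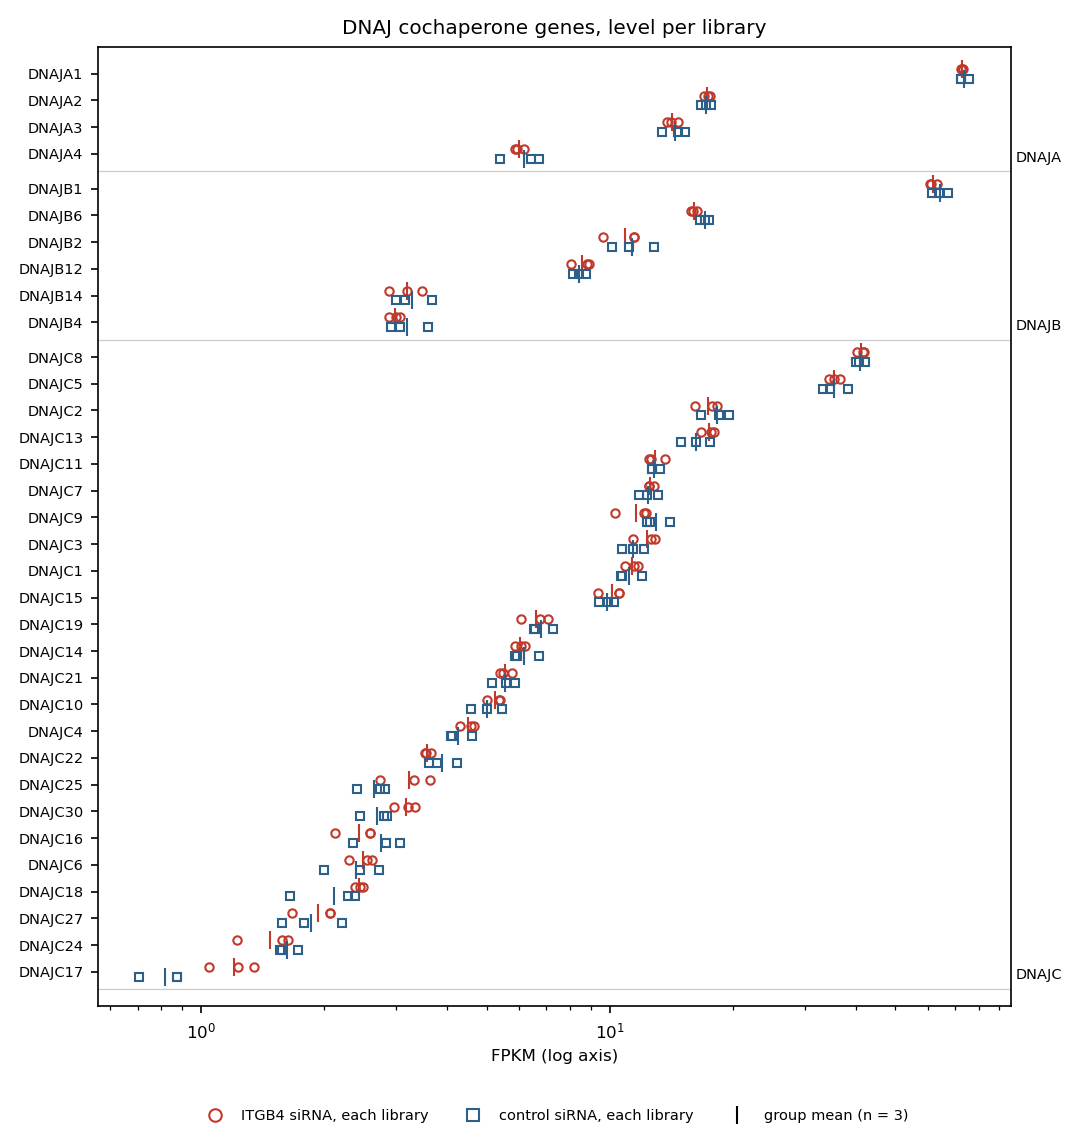
FPKM (log axis) of the tested DNAJA, DNAJB and DNAJC genes in each library, with 3 ITGB4 siRNA libraries (circles, upper row) and 3 control siRNA libraries (squares, lower row) per gene and group means as vertical lines. DNAJA1 and DNAJB1 stand above 60 FPKM, most DNAJC genes are under 20, and the circles of DNAJC17 and DNAJC30 lie to the right of their squares.

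The other DNAJC genes overlapped between the groups. They included DNAJC13, which acts in endosomal sorting (log2 fold change 0.10), DNAJC10, a disulfide reductase of the endoplasmic reticulum (0.06), and the mitochondrial DNAJC19, a subunit of the import motor (-0.03). DNAJC6, the auxilin that uncoats clathrin vesicles (0.05), DNAJC7, which binds both HSP70 and HSP90 (0.02), and DNAJC21, needed for ribosome assembly (0.0034), were among them too. These were named for what they do, after their values were seen. DNAJC1, DNAJC4, DNAJC11, DNAJC14, DNAJC15, DNAJC16, DNAJC18, DNAJC22, DNAJC24 and DNAJC27 lay between -0.12 (DNAJC16) and 0.15 (DNAJC18). DNAJC5G, DNAJC12 and DNAJC28 were under 1 FPKM, and DNAJC5B and the readthrough gene DNAJC25-GNG10 had 0 reads. By compartment, 7 of 9 tested mitochondrial members of the whole set were above 0 and 2 below (median 0.03), and so were 7 of 9 members of the endoplasmic reticulum (median 0.06). Neither held a called gene. Over all tested genes 6242 were above 0 and 6629 below, and the members of a list share the same libraries.

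The 8 tested chaperonin subunits were all abundant, between 68.9 FPKM for TCP1 and 177 FPKM for CCT7 in ITGB4 siRNA libraries. Assembled rings hold 8 different subunits in equal number, while the FPKM of their transcripts differed 2.58 ± 0.0571-fold between the highest and the lowest with ITGB4 siRNA and 2.59 ± 0.169-fold with control siRNA (SD, n = 3 each). This spread and the order of the subunits depend on the gene length used. That length was 4929 bases for TCP1 and 2830 for CCT4, whose longest transcripts hold 2450 and 2471 words of 50 bases. CCT7 was 178, 178 and 177 FPKM with ITGB4 siRNA and 182, 174 and 184 FPKM with control siRNA. CCT4 was 141.5, 145.3 and 139.8 FPKM with ITGB4 siRNA and 143.9, 152.3 and 149.7 FPKM with control siRNA, a log2 fold change of -0.06 (SE 0.0396, limma adjusted p = 0.983). Both overlapped between the groups. CCT6A averaged 130.7 ± 2.11 FPKM with ITGB4 siRNA and 129.8 ± 3.54 FPKM with control siRNA, and CCT8 averaged 124 ± 7.32 FPKM with ITGB4 siRNA and 126 ± 8.37 FPKM with control siRNA. CCT3 averaged 91.5 ± 0.85 FPKM with ITGB4 siRNA and 91.4 ± 1.02 FPKM with control siRNA, and TCP1 averaged 68.9 ± 1.37 FPKM with ITGB4 siRNA and 69.6 ± 3.25 FPKM with control siRNA (SD, n = 3 each). These 4 overlapped as well, and the interval of CCT3, -0.08 to 0.08, was the narrowest of the subunits.

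CCT5 and CCT2 were the 2 subunits whose groups did not overlap, in opposite directions. CCT5 (ENSG00000150753) was 85.3, 83.8 and 84.2 FPKM with ITGB4 siRNA and 79.0, 81.4 and 78.5 FPKM with control siRNA. Its log2 fold change was 0.08 (SE 0.0367, 95% interval -0.0043 to 0.17, limma adjusted p = 0.880). CCT2 (ENSG00000166226) was 73.2, 74.1 and 73.7 FPKM with ITGB4 siRNA and 75.0, 81.5 and 81.3 FPKM with control siRNA. Its log2 fold change was -0.10 (SE 0.0455, 95% interval -0.21 to 0.0044, limma adjusted p = 0.877). On the FPKM scale, which depends on the gene length used, CCT5 was 1.17, 1.13 and 1.14 times CCT2 in ITGB4 siRNA libraries and 1.05, 0.999 and 0.966 times in control libraries, without overlap. This pair was picked after its values were seen, so the exact permutation p of 0.1, the smallest possible here, describes the order and supports nothing. CCT6B was under 1 FPKM, and CCT8L2 had 0 reads.

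The partners of these chaperones showed the same absence of calls, in 5 lists taken with earlier results of these data known. The genes named are the 2 with the smallest limma p of each list, and HSF1. This choice favours groups without overlap, which 11.1% of all tested genes had. All 4 tested heat shock factors and HSF regulators were below 0 (median -0.12), and the groups of 1 did not overlap. HSF2 was 4.38, 5.04 and 4.90 FPKM with ITGB4 siRNA and 5.48, 6.57 and 5.56 FPKM with control siRNA, without overlap, for a log2 fold change of -0.25 (SE 0.0827, limma adjusted p = 0.758). HSF1, the main activator of the heat shock response, was 20.1, 19.0 and 18.3 FPKM with ITGB4 siRNA and 22.2, 19.1 and 21.0 FPKM with control siRNA, with overlap (-0.11, SE 0.0667, limma adjusted p = 0.976). Of 11 tested HSP70 exchange factors and cochaperones, 2 had groups without overlap, 4 were above 0 and 7 below (median -0.03). Among them BAG4, an exchange factor, was 5.26 ± 0.198 FPKM with ITGB4 siRNA and 6.39 ± 0.823 FPKM with control siRNA, and ST13, which holds HSP70 in its ADP state, was 62.7 ± 2.49 FPKM with ITGB4 siRNA and 58.9 ± 2.55 FPKM with control siRNA (SD, n = 3 each). The groups did not overlap for BAG4 and overlapped for ST13. Their limma adjusted p-values were 0.813 and 0.974.

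Of 26 tested HSP90 cochaperones, 10 were above 0 and 16 below (median -0.01). Groups did not overlap for 1 that was higher and 1 that was lower with ITGB4 siRNA. NUDCD3, which works with HSP90 on dynein, was 9.15, 8.19 and 8.08 FPKM with ITGB4 siRNA and 7.12, 7.21 and 6.31 FPKM with control siRNA, without overlap. Its log2 fold change of 0.27 (SE 0.0718) had a limma adjusted p of 0.606, the smallest of the partner genes. FNIP1, a folliculin partner that slows the ATPase of HSP90, was 12.6, 12.7 and 13.9 FPKM with ITGB4 siRNA and 13.8, 18.1 and 17.0 FPKM with control siRNA, where the groups overlapped (-0.29, SE 0.0983, limma adjusted p = 0.782). Of 17 prefoldin subunits and chaperonin cofactors, 2 had groups without overlap, 5 were above 0 and 12 below (median -0.03). PFDN1, a prefoldin subunit that hands actin and tubulin to the chaperonin, averaged 26.0 ± 0.834 FPKM with ITGB4 siRNA and 28.0 ± 0.422 FPKM with control siRNA, and PDCL averaged 7.77 ± 0.453 FPKM with ITGB4 siRNA and 8.92 ± 0.888 FPKM with control siRNA (SD, n = 3 each). Neither overlapped between the groups. Their limma adjusted p-values were 0.853 and 0.883.

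Of 14 partners in mitochondrial quality control, 6 were above 0 and 8 below (median -0.01). Groups did not overlap for 1 that was higher and 1 that was lower with ITGB4 siRNA. AFG3L2, a protease of the inner membrane, was 19.5, 19.3 and 18.9 FPKM with ITGB4 siRNA and 17.3, 17.96 and 17.5 FPKM with control siRNA. GRPEL2, an exchange factor for HSPA9, was 9.21, 9.63 and 10.2 FPKM with ITGB4 siRNA and 7.80, 9.28 and 7.83 FPKM with control siRNA. The groups did not overlap for AFG3L2 and overlapped for GRPEL2, and their limma adjusted p-values were 0.783 and 0.813.

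Within the groups, the chaperones varied more among control libraries than among ITGB4 siRNA libraries. The median coefficient of variation of the 60 genes was 3.24% with ITGB4 siRNA and 6.51% with control siRNA, beside 6.12% with ITGB4 siRNA and 8.64% with control siRNA over all tested genes. It was larger in the control group for 48 of the 60, or 80.0%, against 64.7% of all genes. Among genes with a mean of at least 5 FPKM the shares were closer, 80.9% of 47 members and 70.3% of 7295 genes. The medians there were 2.96% with ITGB4 siRNA and 6.13% with control siRNA for the members. For all such genes they were 4.61% and 6.92%. Control replicate 2 was the highest of the 6 libraries for 26 of the 60 genes, or 43.3% (all genes 23.5%), and control replicate 1 the lowest for 19, or 31.7% (all genes 23.2%). These counts describe the libraries and were not tested.

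The deviations of the 60 genes in those control libraries moved with GC content, as did those of all tested genes. Across genes, which are not independent replicates, the deviation from the control mean was correlated with the GC content of the longest transcript. Pearson r was 0.677 in control replicate 1 and -0.766 in control replicate 2 (0.499 and -0.462 over all tested genes with a GC value). In control replicate 3 it was 0.00502 (-0.0777 over all such genes). The deviations of a gene cancel within its group, so the opposite signs in control replicates 1 and 2 are not independent. By rank the 60 genes were near all genes in these 2 libraries. Spearman rho there was 0.638 and -0.687 for the 60, and 0.657 and -0.635 over all tested genes with a GC value. HSPB1, with a GC content of 64.3%, had deviations of 0.31 in control replicate 1 and -0.24 in control replicate 2, on the log2(FPKM + 1) scale. DNAJB4, with a GC content of 33.1%, had deviations of -0.10 and 0.14 there. In ITGB4 siRNA replicates 1, 2 and 3 the Pearson correlations were 0.388, -0.364 and -0.066. The fold change between ITGB4 siRNA and control siRNA correlated with GC content at r = -0.02 over the 60 genes.

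**Figure D4:**
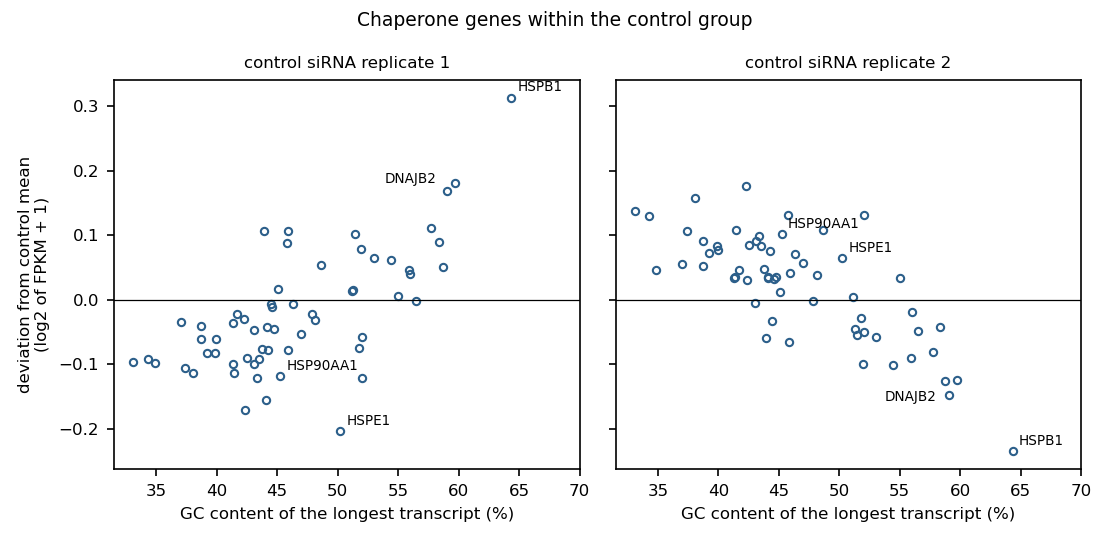
Deviation of each of the 60 tested chaperone genes from its control mean (log2 of FPKM + 1) against the GC content of its longest transcript (%), in control siRNA replicate 1 (left) and replicate 2 (right), 1 point per gene. The points climb to the right in replicate 1 (r = 0.677) and descend in replicate 2 (r = -0.766), with HSPB1 at the end of both. Deviations cancel within the control group, so the panels are not independent. Control replicate 3, not shown, had r = 0.00502.

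Shared sequence limits how finely the families can be read. Of the 82 genes, 17 share over 10% of the 50-base words of their longest transcript with other genes, and 33 share none. The share was 17.5% for HSP90AA1, 18.8% for HSP90AB1, 15.4% for HSPA8, 24.8% for HSPD1 and 27.2% for HSPE1. In all, 99 pseudogenes carry the name of 17 members. On the opposite strand, 19 members are overlapped by a gene of at least 1 FPKM. How reads that fit several genes were assigned is not given in the sources used here.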

How the data were processed

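RNA-seq libraries of SW480 cells, 3 with ITGB4 siRNA and 3 with control siRNA, were grouped by sample title. Libraries were made from total RNA on poly-T beads, per the labels' protocols. The authors deposited FPKM per gene on GRCh38 with the gene length used. DESeq2 and edgeR appear, with no stated role, in the submitters' processing notes, and the aligner, the counter and strandedness are not given in the sources used here.

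Each FPKM, scaled by its gene's length and by what a single read contributed in its library, gave whole reads for 100% of values at a tolerance of 0.01, in libraries of 13715266 to 15496274 reads. Genes with a mean of at least 1 FPKM over the 6 libraries were tested, 12871 in all. Two-sided tests of log2(FPKM + 1) were made in limma 3.58.1 (limma-trend, R 4.3.3), with the siRNA as the sole term. Calls needed a Benjamini-Hochberg adjusted p under 0.05 across the 12871 genes. The fit was also run on simulated, independent normal values, which lack deviations shared among genes, and no result here rests on that run. Limma-voom on the recovered reads and 12 further alternatives were run. An exact permutation test of mean FPKM, whose smallest p is 0.1, was added for named genes. Summaries used Python 3.11.15, pandas 2.3.3, numpy 2.4.6 and scipy 1.17.1.

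The members and lists were chosen with earlier results of these data known. Named members were all of HSP90, HSP110, HSP60, HSP10 and the chaperonin, and in the other families the 3 most abundant and the 3 (DNAJC 5) with the smallest limma p. For partner lists the 2 genes with the smallest p and HSF1 were named. Other members are named to account for all of them, with their values known. Shared 50-base words, GC content and overlaps used GENCODE transcripts and the deposited coordinates. Promoters came from RefSeq (GRCh38.p14), matched by symbol.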

Additional observations from a re-analysis of the deposited data

How the results depend on the processing

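Under 13 alternatives, 0 of the tested chaperone genes were called, and the smallest limma adjusted p among them was 0.287, without control replicate 1. The count of all genes called was 6, and it was 0 with no filter on low values, 26 with limma-voom on recovered reads and 0 to 7 with 1 library left out. Chaperones at an unadjusted p under 0.05 numbered 1, and 0 with a pseudocount of 0.1, TPM or a filter at 5 FPKM, which removed DNAJC17. They numbered 4 of 75 with no filter, where 1356 of 31956 genes passed. With 1 library left out they numbered 0 to 3, beside 526 to 1314 of all genes. The DNAJB median of -0.05 was -0.031 with no filter. ITGB4 kept its log2 fold change of -0.81 with no filter, at a limma adjusted p of 0.0618, and ranged from -0.87 to -0.76 with 1 library left out. With 1 library left out, family medians ranged from -0.073 to -0.035 for DNAJB and 0.0065 to 0.042 for DNAJC, and on both sides of 0 for the others: -0.042 to 0.065 for HSP60 and HSP10, -0.031 to 0.041 for HSP90, -0.040 to 0.030 for HSP110, -0.0041 to 0.059 for HSP70, -0.046 to 0.034 for small heat shock proteins, -0.023 to 0.015 for DNAJA and -0.033 to 0.0070 for the chaperonin. The median of all tested members ranged from -0.0087 to 0.017.

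The replicate numbers were not taken as pairs in the main fit. The deviations of same-numbered libraries correlated at 0.173, 0.102 and -0.01 for replicates 1, 2 and 3. Those of different-numbered libraries correlated at -0.174 to 0.0862, below the values of replicates 1 and 2. Whether same-numbered libraries were handled together was not tested. With the replicate number as a block, 0 genes were called in all and 0 chaperones were called. Of the 60 chaperones, 3 had an unadjusted limma p under 0.05 (DNAJC25, CCT2 and HSPA1B), beside 1064 of 12871 genes. ITGB4 had a log2 fold change of -0.81 at a limma adjusted p of 0.0564 there.

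Of 37 named members, 18 changed sign with some library left out, and 0 under the other alternatives. Their log2 fold changes then ranged from -0.0075 to 0.0089 for CCT3, -0.010 to 0.028 for CCT6A, -0.081 to 0.017 for CCT8, -0.052 to 0.011 for TCP1, -0.025 to 0.0099 for DNAJA1, -0.0093 to 0.026 for DNAJA2, -0.073 to 0.016 for DNAJA3, -0.12 to 0.019 for DNAJA4 and -0.13 to 0.028 for DNAJB2. They ranged from -0.035 to 0.061 for DNAJC5, -0.0053 to 0.032 for DNAJC8, -0.020 to 0.090 for HSP90AA1, -0.028 to 0.059 for HSPA4, -0.021 to 0.067 for HSPA9, -0.11 to 0.16 for HSPB1, -0.11 to 0.034 for HSPB11, -0.089 to 0.083 for HSPE1 and -0.040 to 0.030 for HSPH1. Directions near 0 are therefore not determined by 3 libraries a group, and for members near 1 FPKM depth adds to the error.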
